A study of Homo sapiens with 8 samples.

Results

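Transcripts of the class IIa histone deacetylases (HDAC4, HDAC5, HDAC7 and HDAC9), of the transcription factors they bind (MEF2A, MEF2C and MEF2D) and of TWIST1, the gene next to HDAC9 on chromosome 7, were compared between lung cancer cells sensitive and resistant to FGFR inhibition. These 8 genes were taken from the 37441 genes of the count table by their Ensembl identifiers. HDAC9 was selected on its higher counts in both resistant lines, so its values are described here and carry no test, while the other 7 genes were tested. All 8 passed the filter of at least 10 counts in total, which 18203 genes passed.

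NCI-H1581 and NCI-H1703 are established non-small cell lung cancer lines that the study found sensitive to inhibition of the fibroblast growth factor receptors (FGFR). Their variants NCI-H1581R and NCI-H1703R had been selected with the FGFR inhibitor CPL304110. Selection started at 50 nM and ended at 2.5 µM for NCI-H1581R and 5 µM for NCI-H1703R, over 4 to 6 months, and whether a resistant line was a single clone is not stated in the sources used here. NCI-H1581 and NCI-H1581R were grown in DMEM/F12 and NCI-H1703 and NCI-H1703R in RPMI 1640, so a difference between the lines cannot be told apart from one between media. Cells were harvested 24 h after a medium change, the medium's inhibitor content at that point not being stated, and 2 libraries were sequenced per group, 8 in all. The second library of each group came from a repeat of the whole procedure. P-values measure the spread between such repeats.

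Class IIa histone deacetylases have little deacetylase activity of their own and act mainly as scaffolds: in the nucleus they bind MEF2 and recruit the NCoR/SMRT complex with HDAC3, which keeps MEF2 target genes silent. When kinases such as CaMK, protein kinase D or the SIK family phosphorylate them, 14-3-3 proteins bind and hold them in the cytoplasm, and MEF2 is set free to recruit coactivators. TWIST1 is a basic helix-loop-helix factor of mesoderm and of epithelial-mesenchymal transition, and enhancers that drive it in embryonic limb and face lie inside the HDAC9 gene.

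RefSeq promoter windows (GRCh38.p14, 250 bases before to 50 after a start) were found for 6 of the 8 genes. HDAC9 and MEF2C are shown because their values differed most between the groups. In these sequences, written 5′ to 3′ on the strand of the gene, capitals mark E-boxes (CANNTG, the letters that TWIST1 and other helix-loop-helix factors bind) and the MEF2 site, searched on both strands. The first window is the most upstream HDAC9 start in the table (chr7:18086575-18086874, plus strand), the second the start of the HDAC9 canonical transcript (chr7:18495499-18495798, plus strand) and the third that of MEF2C (chr5:88883135-88883434, minus strand).
HDAC9 upstream start: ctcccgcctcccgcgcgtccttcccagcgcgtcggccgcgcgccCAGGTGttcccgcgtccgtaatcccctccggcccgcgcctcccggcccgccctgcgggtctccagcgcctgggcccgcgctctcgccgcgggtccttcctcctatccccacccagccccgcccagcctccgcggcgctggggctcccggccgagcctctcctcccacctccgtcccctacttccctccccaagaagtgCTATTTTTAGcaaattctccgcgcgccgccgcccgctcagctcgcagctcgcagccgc
HDAC9 canonical start: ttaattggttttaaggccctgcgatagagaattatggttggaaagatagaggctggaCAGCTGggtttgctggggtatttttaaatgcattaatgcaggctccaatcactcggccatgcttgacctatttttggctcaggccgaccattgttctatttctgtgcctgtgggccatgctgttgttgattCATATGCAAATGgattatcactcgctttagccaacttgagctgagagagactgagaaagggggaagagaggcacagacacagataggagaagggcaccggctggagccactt
MEF2C canonical start: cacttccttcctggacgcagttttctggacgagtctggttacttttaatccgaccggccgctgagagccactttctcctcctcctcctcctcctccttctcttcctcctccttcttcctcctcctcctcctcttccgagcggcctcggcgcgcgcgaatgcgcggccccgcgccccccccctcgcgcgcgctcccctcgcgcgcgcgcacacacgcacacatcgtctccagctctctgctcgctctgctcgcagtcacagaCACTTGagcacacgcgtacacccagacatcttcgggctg
The upstream HDAC9 window held 1 MEF2 site, beginning at position -8 from the start, and 1 E-box. The canonical HDAC9 window held 3 E-boxes, of which a pair adjoined without overlapping, and no MEF2 site. The MEF2C window held 1 E-box, within the transcribed part. Of 35116 RefSeq windows of this length, 68.7% held an E-box and 2.99% a MEF2 site, and neither search overlapped the other's match in these windows. GC content was 75.0%, 47.3% and 64.7% in the order shown. The gene counts do not tell which of the HDAC9 starts was used, and a match is a description of letters only.

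HDAC9 was the class IIa member that differed most between sensitive and resistant cells, by the choice made. Its gene spans chr7:18086949-19002416 in GENCODE v44 (GRCh38). Its level in CPM, the relative abundance of a gene's counts after TMM scaling of the 8 libraries, was 5.70 and 5.17 in NCI-H1581, 23.9 and 26.1 in NCI-H1581R, 16.1 and 17.2 in NCI-H1703 and 69.3 and 81.8 in NCI-H1703R. Each resistant pair lay above its sensitive pair, and both NCI-H1703 groups lay above the NCI-H1581 group of the same kind. These values rested on 192 to 3099 counts per library. The log2 fold change with resistance was 2.22 in NCI-H1581R and 2.21 in NCI-H1703R, which is 4.64-fold in both, and it ran from 2.13 to 2.29 and from 2.09 to 2.34 when any one library was left out. Between the lines HDAC9 was 3.06-fold higher in NCI-H1703 than in NCI-H1581 and 3.09-fold higher in NCI-H1703R than in NCI-H1581R.

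**Figure D1:**
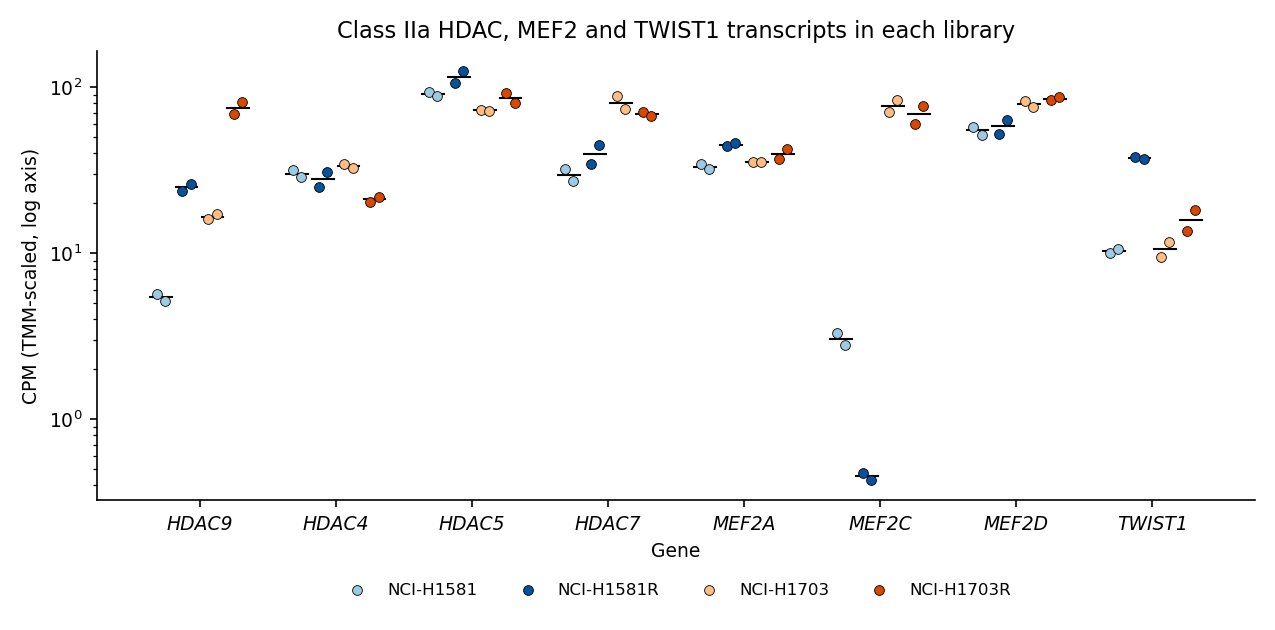
CPM of the 8 genes on a log axis, with a point for each library, a bar for the mean of 2 and a colour for each group. HDAC9 sits higher in both resistant lines, MEF2C spans from 0.432 CPM in NCI-H1581R to 84.0 CPM in NCI-H1703, and TWIST1 is highest in NCI-H1581R.

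The other class IIa genes moved less, and HDAC4 was the one of them that passed the test. HDAC4, a repressor of MEF2 in muscle and growth plate, measured 31.7 and 28.8 CPM in NCI-H1581, 25.2 and 30.9 in NCI-H1581R, 34.4 and 32.6 in NCI-H1703 and 20.4 and 21.9 in NCI-H1703R. The pairs overlapped in the NCI-H1581 line and were apart in the NCI-H1703 line, where the resistant cells were lower. HDAC4 fell in NCI-H1703R (log2 fold change -0.63, SE 0.10, adjusted p = 0.0213), and did not pass in NCI-H1581R (log2 fold change -0.10, SE 0.19, adjusted p = 0.821). Without NCI-H1703 replicate 1 or replicate 2 its adjusted p in NCI-H1703R was 0.197 and 0.190, at log2 fold changes of -0.61 and -0.65. Adjusted p-values come from the quasi-likelihood test of edgeR, with the Benjamini-Hochberg method over all 18203 genes, and a gene was called under 0.1.

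HDAC5, a repressor of cardiac growth that shuttles between nucleus and cytoplasm, measured 94.4 and 89.2 CPM in NCI-H1581, 105.5 and 125.2 in NCI-H1581R, 73.5 and 72.0 in NCI-H1703 and 92.0 and 80.5 in NCI-H1703R. Both resistant pairs lay above their sensitive pairs, yet the differences did not pass the test, with log2 fold changes of 0.34 (SE 0.17, adjusted p = 0.282) and 0.28 (SE 0.11, adjusted p = 0.179). With the replicate number as a block the adjusted p in NCI-H1703R was 0.0228. Of its exon length 24.0% overlaps G6PC3 on the opposite strand, a gene with 3717 to 15279 counts, and 21.6% of its 31-base stretches occur in other genes. The strandedness of the libraries is not given in the sources used here, so reads of the pair may have been split.

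HDAC7, which is known for its part in endothelial cells and thymocytes, measured 32.4 and 27.1 CPM in NCI-H1581, 34.7 and 45.1 in NCI-H1581R, 88.5 and 73.6 in NCI-H1703 and 71.4 and 67.1 in NCI-H1703R. The resistant pair lay above the sensitive pair in one line and below it in the other, by log2 fold changes of 0.44 (SE 0.21, adjusted p = 0.260) in NCI-H1581R and -0.19 (SE 0.11, adjusted p = 0.361) in NCI-H1703R. Neither passed without the block, and with it the adjusted p in NCI-H1703R was 0.0676. The difference between these 2 changes did not pass either (interaction -0.65, adjusted p = 0.140).

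MEF2C, the MEF2 gene of heart, muscle, neurons and lymphocytes, had the widest range of the 8 genes. It measured 3.32 and 2.80 CPM in NCI-H1581, 0.478 and 0.432 in NCI-H1581R, 70.7 and 84.0 in NCI-H1703 and 59.9 and 77.7 in NCI-H1703R. The NCI-H1581R pair lay below NCI-H1581, and the NCI-H1703 pairs overlapped. Counts were 112 and 112 in NCI-H1581 and 18 and 17 in NCI-H1581R, so the level after resistance rested on few reads. MEF2C fell 6.61-fold in NCI-H1581R (log2 fold change -2.73, SE 0.46, adjusted p = 0.0142) and did not pass in NCI-H1703R (log2 fold change -0.14, SE 0.16, adjusted p = 0.654). The changes differed between the lines (interaction 2.57, SE 0.42, adjusted p = 0.00698).

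MEF2A and MEF2D, the more widely expressed MEF2 genes, did not pass in either line. MEF2A measured 34.3 and 32.1 CPM in NCI-H1581, 44.3 and 46.1 in NCI-H1581R, 35.4 and 35.5 in NCI-H1703 and 37.1 and 42.3 in NCI-H1703R, with log2 fold changes of 0.46 (SE 0.16, adjusted p = 0.146) and 0.19 (SE 0.11, adjusted p = 0.331). Its resistant pairs lay above its sensitive pairs in both lines. MEF2D measured 58.0 and 52.0 CPM in NCI-H1581, 52.7 and 63.8 in NCI-H1581R, 83.3 and 75.6 in NCI-H1703 and 83.7 and 87.2 in NCI-H1703R, with log2 fold changes of 0.09 (SE 0.18, adjusted p = 0.808) and 0.14 (SE 0.09, adjusted p = 0.422). For MEF2A, 11.1% of the exon length overlaps LYSMD4 on the opposite strand (193 to 597 counts) and 16.2% of its 31-base stretches occur in other genes. MEF2B, the remaining paralogue, had 6 to 50 counts per library and was not called in either line.

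TWIST1 rose with resistance in NCI-H1581R. It measured 10.0 and 10.7 CPM in NCI-H1581, 38.1 and 37.2 in NCI-H1581R, 9.52 and 11.8 in NCI-H1703 and 13.7 and 18.2 in NCI-H1703R. The 2 sensitive lines overlapped, and each resistant pair lay above its sensitive pair. The rise in NCI-H1581R was 3.65-fold (log2 fold change 1.87, SE 0.18, adjusted p = 0.00156). In NCI-H1703R the log2 fold change was 0.61 (SE 0.20, adjusted p = 0.127), and with the replicate block its adjusted p was 0.00480. The changes differed between the lines (interaction -1.28, SE 0.26, adjusted p = 0.0174), with an adjusted p of 0.101 when NCI-H1703 replicate 2 was left out.

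**Figure D2:**
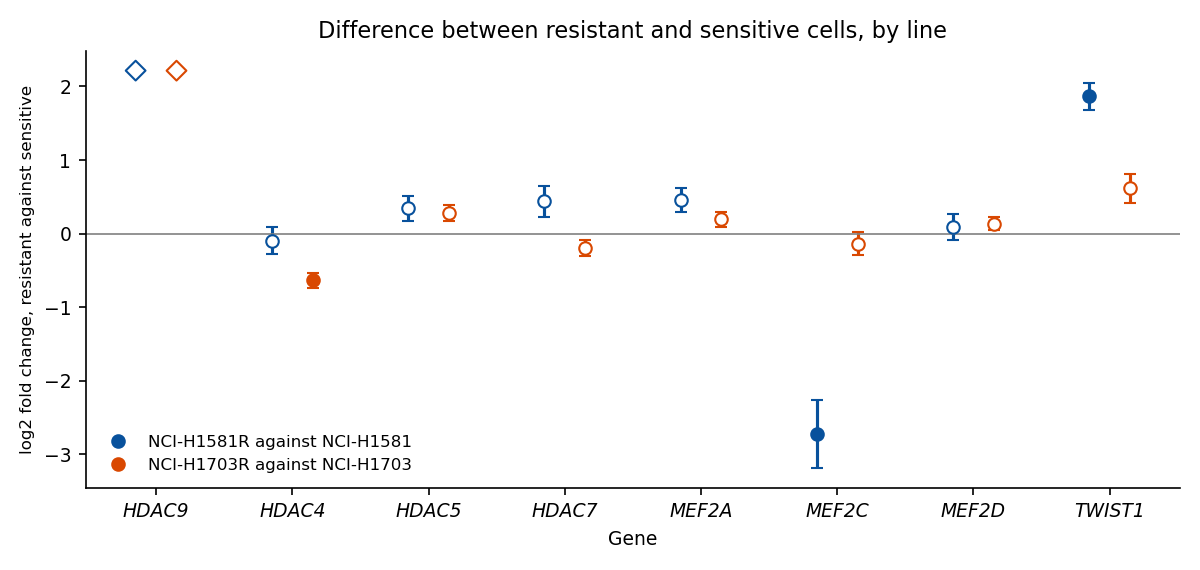
log2 fold change of each gene in the resistant against the sensitive cells of its line, with bars of 1 SE and filled points where the adjusted p was under 0.1; HDAC9, drawn as open diamonds without bars, was not tested. MEF2C and TWIST1 are called in NCI-H1581R and HDAC4 in NCI-H1703R.

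Counted over the 7 tested genes, 2 were called in NCI-H1581R, with 1 higher (TWIST1) and 1 lower (MEF2C), where 15.1% of all genes tested were called, 7.63% as higher and 7.44% as lower. The 2 libraries of NCI-H1581R differed from each other more than any other pair did, with a chi-square per degree of freedom of 96.8 against 23.3 to 31.9, and without NCI-H1581R replicate 1 the count was 5, with HDAC5, HDAC7 and MEF2A called as higher as well, while the share of all genes called rose to 28.5%. In NCI-H1703R 1 gene was called, HDAC4 as lower, where 14.7% of all genes were called, 7.06% as higher and 7.67% as lower. No member was called higher there in the main edgeR fit or by DESeq2, and 2 had an unadjusted p under 0.05 in that edgeR fit. With at least 10 counts in every library edgeR called TWIST1 higher (adjusted p = 0.0842), where 24.3% of all genes were called. With the replicate block the count in NCI-H1703R was 4 (HDAC5 and TWIST1 higher, HDAC4 and HDAC7 lower), and the share of all genes called was then 34.9%. The median log2 fold change of the 7 genes was 0.34 in NCI-H1581R and 0.14 in NCI-H1703R, beside 0.04 and 0.00 for all genes tested. For 2 of the 7 genes, MEF2C and TWIST1, the change with resistance differed between the lines, as it did for 15.4% of all genes. In these bulk samples, fewer cells that express a gene and less RNA per cell cannot be told apart.

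Before resistance the 2 lines differed in 4 of the 7 genes, where 62.9% of all genes did. MEF2C was 25.4-fold higher in NCI-H1703 than in NCI-H1581 (log2 difference 4.67, SE 0.18, adjusted p = 9.47e-07). HDAC7 was 2.73-fold higher (adjusted p = 6.70e-05) and MEF2D 1.45-fold higher (adjusted p = 0.00378) in NCI-H1703, while HDAC5 was lower there (log2 difference -0.33, SE 0.09, adjusted p = 0.0191). TWIST1 differed by 0.03 on the log2 scale (SE 0.19, adjusted p = 0.909). After resistance 4 of 7 genes differed again, where 52.5% of all genes did. MEF2C was then 154-fold higher in NCI-H1703R than in NCI-H1581R (adjusted p = 5.11e-05) and TWIST1 2.31-fold lower (log2 difference -1.21, SE 0.19, adjusted p = 0.00566). HDAC7 was 1.78-fold higher (adjusted p = 0.0166) and MEF2D higher by 0.59 on the log2 scale (adjusted p = 0.0331), and each lost the call when either NCI-H1703R library was left out (adjusted p of 0.107 to 0.127 for HDAC7 and 0.196 to 0.269 for MEF2D).

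Levels were compared between genes as CPM per kb of the canonical transcript. In NCI-H1581 the order was HDAC5 (17.3), MEF2D (9.30), HDAC7 (7.06), TWIST1 (6.35), MEF2A (5.95), HDAC4 (3.57), HDAC9 (0.550) and MEF2C (0.420). The libraries of HDAC7 and TWIST1 overlapped, and the other neighbours in that order were apart, TWIST1 and MEF2A only just. The lowest TWIST1 library had 6.1534 CPM per kb and the highest MEF2A library 6.1529, so their order is not resolved. In NCI-H1581R TWIST1 (23.1 CPM per kb) and HDAC5 (21.7) came first with overlapping libraries, and HDAC9 (2.53) stayed below HDAC4 (3.31). In NCI-H1703 HDAC9 had the lowest level of the 8 genes (1.68 CPM per kb). In NCI-H1703R it reached 7.65 CPM per kb and overlapped with MEF2C (9.45) and MEF2A (7.11), while HDAC4 (2.50) was lowest. Among the 11 zinc-dependent histone deacetylases HDAC9 ranked 11 per kb in NCI-H1581, NCI-H1581R and NCI-H1703 and 9 in NCI-H1703R. HDAC1, the class I enzyme with the highest level in all 4 groups, measured 73.5 to 156.6 CPM per kb.

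As a share of the class IIa sum of CPM per kb, HDAC9 made up 1.93% ± 0.00734 (SD, n = 2) in NCI-H1581 and 6.88% ± 0.501 in NCI-H1581R. In the other line it made up 4.38% ± 0.516 in NCI-H1703 and 17.9% ± 2.61 in NCI-H1703R. HDAC5 and HDAC7 together held the larger part in every group. HDAC4 went from 12.6% ± 0.0348 to 8.95% ± 0.0703 in the NCI-H1581 line and from 10.3% ± 0.351 to 5.84% ± 0.467 in the NCI-H1703 line. The sum itself was 28.4 ± 1.85 CPM per kb in NCI-H1581, 37.0 ± 4.98 in NCI-H1581R, 38.5 ± 2.77 in NCI-H1703 and 42.8 ± 1.24 in NCI-H1703R. Shares depend on the length assumed, and with the length of all exons in place of the canonical transcript the order of HDAC5 and HDAC7 in NCI-H1703 turned. In NCI-H1703R HDAC5 took 37.9% and HDAC7 38.4% by the canonical transcript, with overlapping libraries. With all exons they took 46.8% and 28.9% there. Of the MEF2 sum, MEF2C made up 2.68% ± 0.145 in NCI-H1581, 0.349% ± 0.0550 in NCI-H1581R, 34.9% ± 3.81 in NCI-H1703 and 30.3% ± 2.82 in NCI-H1703R. In the NCI-H1581 line MEF2A and MEF2D made up nearly all of the sum.

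**Figure D3:**
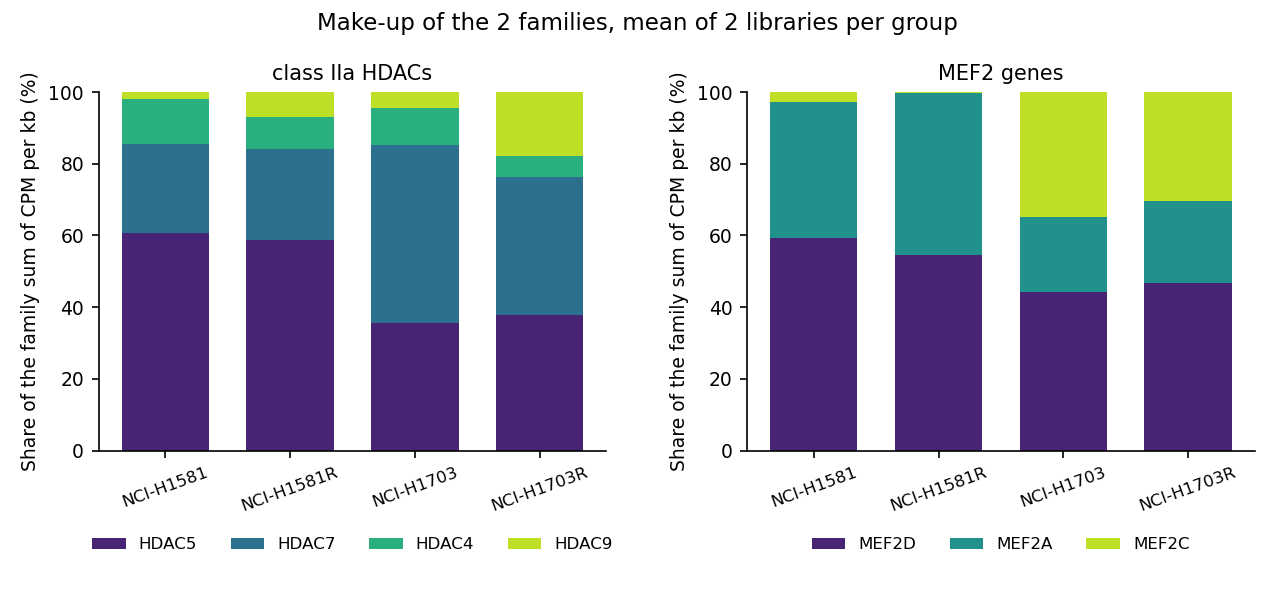
Mean share of each gene in the summed CPM per kb of the class IIa histone deacetylases (left) and of the MEF2 genes (right), with 1 bar for each group of 2 libraries. HDAC9 takes 17.9% of its family in NCI-H1703R and 1.93% in NCI-H1581, and MEF2C takes 34.9% of its family in NCI-H1703 and 0.349% in NCI-H1581R.

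The genes around these factors were read from 9 lists with 96 genes, of which 91 were tested. In NCI-H1581R 21 of the 91 were called, 14 higher and 7 lower, where 15.1% of all genes were called (7.63% higher and 7.44% lower). In NCI-H1703R 15 were called, 3 higher and 12 lower, where 14.7% of all genes were (7.06% higher and 7.67% lower). With the replicate block the counts were 25 of 91 in NCI-H1581R, where 18.1% of all genes were called, and 43 of 91 in NCI-H1703R, where 34.9% were. Medians were near 0 in both lines (log2 fold changes of 0.00781 and 0.00). Called in both lines in the same direction were CAMK1D, BDNF, ARC and ID4, and ZEB2 was called in opposite directions.

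In each line the MEF2 target genes called there were lower in the resistant cells, and BDNF and ARC were called in both lines. Of 16 tested, 3 fell in NCI-H1581R, where 7.44% of all genes were called lower, and 5 in NCI-H1703R, where 7.67% were. None was called higher by edgeR without the block or by DESeq2, although 2 and 0 had an unadjusted p under 0.05 in that direction. The exception under the replicate block was MYOM1, a protein of the sarcomere, which was higher in NCI-H1581R by 1.58 on the log2 scale (adjusted p = 0.0641 with the block and 0.135 without it). The medians of this list were 0.15 and -0.29 on the log2 scale, so that of NCI-H1581R was of the opposite sign to its calls. BDNF, a neurotrophin, had 51 and 93 counts in NCI-H1581, 0 and 2 in NCI-H1581R, 362 and 361 in NCI-H1703 and 59 and 55 in NCI-H1703R. Against 3 counts per library it was at least 24.6-fold lower in NCI-H1581R (adjusted p = 0.00714), and it fell in NCI-H1703R as well (log2 fold change -2.74, SE 0.22, adjusted p = 0.00242).

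ARC, an immediate early gene of neurons, had 1392 and 1095 counts in NCI-H1581 and 96 and 98 in NCI-H1581R, and it fell by 3.75 on the log2 scale (SE 0.29, adjusted p = 0.000546). In NCI-H1703 it had 202 and 199 counts and in NCI-H1703R 118 and 120, where it fell by 0.83 (SE 0.21, adjusted p = 0.0758), a call that was lost when any one library was left out (adjusted p of 0.196 to 0.328). The orphan nuclear receptors went separate ways: NR4A2 fell in NCI-H1581R by 2.73 (SE 0.22, adjusted p = 0.000668) and NR4A1 in NCI-H1703R by 1.17 (SE 0.14, adjusted p = 0.00898). Neither was called in the other line, with log2 fold changes of -0.02 for NR4A2 in NCI-H1703R and 0.32 for NR4A1 in NCI-H1581R. JUN, a component of AP-1, had 2198 and 1920 counts in NCI-H1703 and 578 and 805 in NCI-H1703R and fell by 1.65 (SE 0.16, adjusted p = 0.00415). It had 104 to 147 counts in the NCI-H1581 line, with a log2 fold change of -0.02 (adjusted p = 1). The calls of NR4A1 and JUN were lost when either NCI-H1703 library was left out, with adjusted p-values of 0.106 to 0.143.

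Of the kinases that phosphorylate class IIa histone deacetylases, 20 were tested. In NCI-H1581R 3 were called higher and 2 lower, where 15.1% of all genes were called. In NCI-H1703R 0 were called higher and 3 lower, where 14.7% of all genes were called, a share near that of these kinases. DESeq2 also called 0 higher in NCI-H1703R, and 2 had an unadjusted p under 0.05. The fit with the replicate block called 9 there, 4 higher and 5 lower, where it called 34.9% of all genes. CAMK1D, a calcium/calmodulin-dependent kinase, fell in NCI-H1581R by 1.36 on the log2 scale (SE 0.25, adjusted p = 0.0189) and in NCI-H1703R by 1.60 (SE 0.27, adjusted p = 0.0240). It had 421 and 536 counts in NCI-H1581, 165 and 222 in NCI-H1581R, 233 and 162 in NCI-H1703 and 73 and 63 in NCI-H1703R, and the resistant pair lay below the sensitive pair in both lines. The call was lost without either sensitive library of its line, and in NCI-H1703R also without NCI-H1703R replicate 2 (adjusted p of 0.103 to 0.222 over these).

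CAMK2D, a CaMKII subunit, had 200 and 251 counts in NCI-H1581 and 14 and 23 in NCI-H1581R, and it fell by 3.65 (SE 0.41, adjusted p = 0.00271). CAMK4 had 5 and 1 counts in NCI-H1581 and 105 and 79 in NCI-H1581R (log2 fold change 4.83, SE 0.75, adjusted p = 0.00681). With so few counts in NCI-H1581 its size was uncertain, and the log2 fold change was 6.40 without NCI-H1581 replicate 1 and 3.99 without replicate 2 (adjusted p = 0.0362 and 0.0707). PRKACB, a catalytic subunit of protein kinase A, rose in NCI-H1581R by 1.71 (SE 0.30, adjusted p = 0.0155). CAMK1 fell in NCI-H1703R by 1.27 (SE 0.12, adjusted p = 0.00432), as did the salt-inducible kinase SIK2 by 0.36 (SE 0.10, adjusted p = 0.0825). The call of PRKACB was lost without either NCI-H1581 library (adjusted p of up to 0.148), that of CAMK1 without NCI-H1703 replicate 2 (0.111) and that of SIK2 without any one library (up to 0.340).

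**Figure D4:**
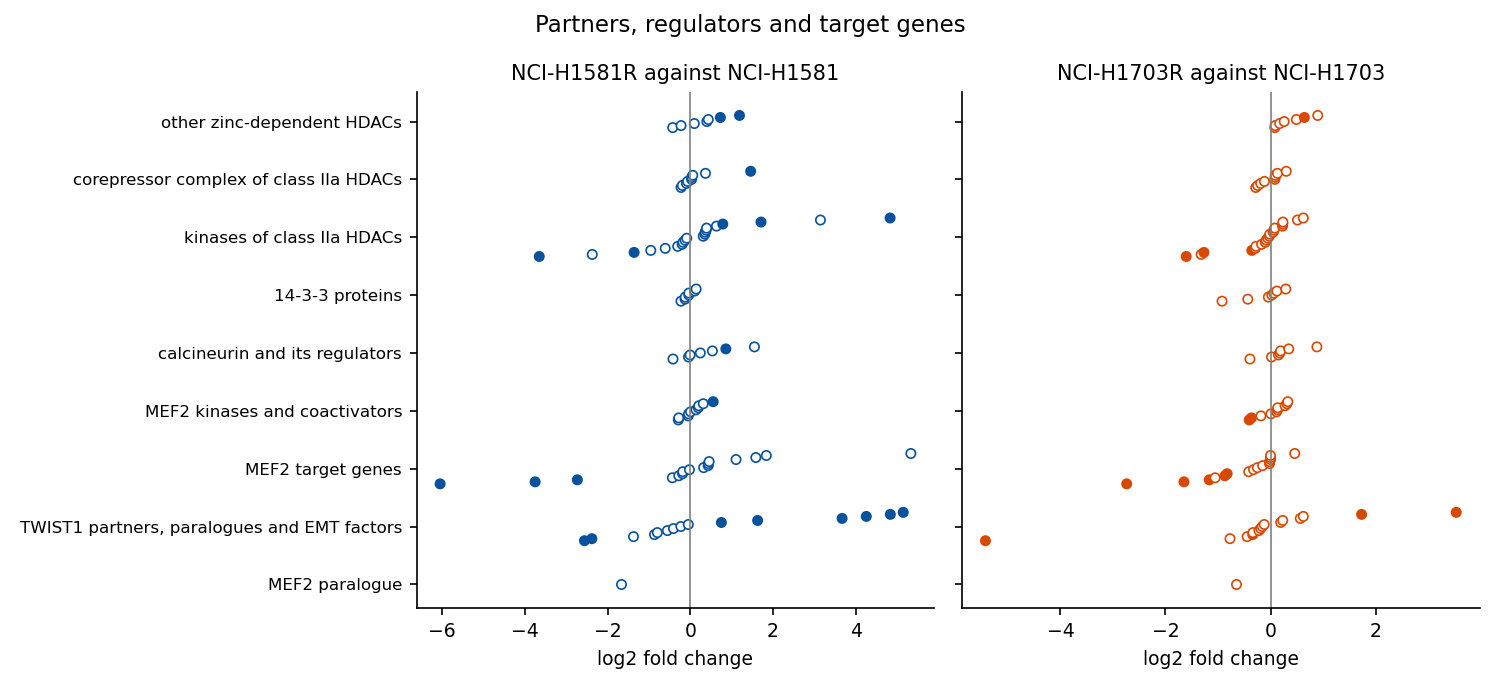
log2 fold change of each tested gene of the 9 lists in NCI-H1581R (left) and NCI-H1703R (right), with filled points where the adjusted p was under 0.1. The filled points of the MEF2 target genes all lie below 0 in both panels, 3 in NCI-H1581R and 5 in NCI-H1703R.

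Of the other zinc-dependent histone deacetylases and the corepressor genes, 3 were called in NCI-H1581R and 1 in NCI-H1703R without the replicate block. Of all genes 15.1% and 14.7% were called there. Of the other 7 zinc-dependent histone deacetylases, HDAC6, a cytoplasmic tubulin deacetylase, rose in NCI-H1581R by 1.19 on the log2 scale (SE 0.23, adjusted p = 0.0226) and HDAC11 by 0.73 (SE 0.21, adjusted p = 0.0837), and HDAC8 rose in NCI-H1703R by 0.64 (SE 0.17, adjusted p = 0.0799). All 3 calls were lost when a sensitive library was left out, with adjusted p-values of 0.142 to 0.494. Of the 9 corepressor genes, CBX5, the heterochromatin protein HP1 alpha, had 4357 and 5652 counts in NCI-H1581 and 14987 and 13440 in NCI-H1581R and rose by 1.46 (SE 0.18, adjusted p = 0.00356), with an adjusted p of 0.118 without NCI-H1581 replicate 1. With the replicate block 5 of the 7 histone deacetylases were called in NCI-H1703R, all higher. The block called 34.9% of all genes there, 18.2% higher and 16.7% lower. In NCI-H1703R 0 corepressor genes were called by edgeR without the block, with 2 at an unadjusted p under 0.05 and 1 called by DESeq2, and 4 of 9 with the block (1 higher and 3 lower). Of the 14-3-3 genes 0 of 7 were called in either line by edgeR without the block. Unadjusted p-values were under 0.05 for 0 in NCI-H1581R and 2 in NCI-H1703R, and DESeq2 called 0 and 2. With the block 2 were called in NCI-H1703R, YWHAB as higher (log2 fold change 0.29, adjusted p = 0.00649) and YWHAH as lower (-0.43, adjusted p = 0.000591).

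Of 7 genes of calcineurin, the phosphatase that opposes these kinases, RCAN3 rose in NCI-H1581R by 0.86 (SE 0.17, adjusted p = 0.0263), with an adjusted p of up to 0.286 when a NCI-H1581 library was left out. In NCI-H1703R 0 were called by edgeR without the block and by DESeq2, with 1 at an unadjusted p under 0.05. With the block 3 were called there, where 34.9% of all genes were. The block also brought the count in NCI-H1581R from 1 to 2, where it called 18.1% of all genes. Of 10 MEF2 kinases and coactivators, VGLL4, a cofactor of TEAD and MEF2, was called higher in NCI-H1581R (log2 fold change 0.55, SE 0.17, adjusted p = 0.0956). That call was lost with RLE scaling, without the filter, with legacy quasi-dispersions and without either NCI-H1581 library (adjusted p of 0.101 to 0.550 over these). The acetyltransferases CREBBP and KAT2B fell in NCI-H1703R by 0.41 (SE 0.09, adjusted p = 0.0495) and 0.36 (SE 0.10, adjusted p = 0.0841). These 2 calls were lost without either NCI-H1703 library. With the block 6 of the 10 genes were called in NCI-H1703R, where 34.9% of all genes were.

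In the list of TWIST1 partners, paralogues and factors of epithelial-mesenchymal transition, the inhibitors of helix-loop-helix factors rose in NCI-H1581R. Of 15 genes tested there 8 were called, 6 higher and 2 lower, where 15.1% of all genes were called. In NCI-H1703R 4 were called, 2 in each direction, where 14.7% of all genes were. The block raised both counts to 9, where it called 18.1% of all genes in NCI-H1581R and 34.9% in NCI-H1703R. ID1 had 231 and 246 counts in NCI-H1581, 7331 and 6821 in NCI-H1581R, 10096 and 10145 in NCI-H1703 and 8589 and 10179 in NCI-H1703R. Its rise in NCI-H1581R was 4.84 on the log2 scale (SE 0.20, adjusted p = 5.58e-05). ID3 rose likewise by 4.25 (SE 0.20, adjusted p = 9.59e-05). ID4 rose in both lines, by 5.15 (SE 0.26, adjusted p = 0.000109) and by 1.73 (SE 0.16, adjusted p = 0.00369).

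ZEB2, a repressor of epithelial genes, had 3196 and 3652 counts in NCI-H1581, 508 and 702 in NCI-H1581R, 14 and 20 in NCI-H1703 and 191 and 226 in NCI-H1703R. It fell in NCI-H1581R by 2.56 (SE 0.20, adjusted p = 0.000576) and rose in NCI-H1703R by 3.53 (SE 0.36, adjusted p = 0.00480), the latter with an adjusted p of 0.105 to 0.123 without either NCI-H1703 library. Its paralogue ZEB1, named after its values were seen, went the other way in NCI-H1581R, with 56 and 92 counts before and 711 and 1246 after resistance, a rise of 3.67 on the log2 scale (SE 0.37, adjusted p = 0.00180). In NCI-H1703R the log2 fold change of ZEB1 was -0.22 (adjusted p = 0.316, and 0.0867 with the block). CDH2, the mesenchymal cadherin, had 1857 and 1626 counts in NCI-H1703 and 41 and 44 in NCI-H1703R and fell by 5.42 (SE 0.15, adjusted p = 0.000199). In the NCI-H1581 line, where TWIST1 rose, CDH2 had 38 to 119 counts and a log2 fold change of -1.37 (adjusted p = 0.114, and 0.0890 with the block).

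HDAC9 and TWIST1 lie on 7p21 with starts 621.9 kb apart, so the genes around them were read as well. Of 19 protein-coding genes read there, with a start within 2 Mb of either end of the HDAC9 gene, 12 were tested. In NCI-H1581R 2 were called higher (TWIST1 and TSPAN13) and 0 lower (by edgeR and DESeq2 alike, with 1 lower at an unadjusted p under 0.05). In NCI-H1703R 1 was called higher and 1 lower. Of all genes 15.1% were called in NCI-H1581R and 14.7% in NCI-H1703R. With the replicate block 3 were called higher in each line, with FERD3L added in NCI-H1581R and TWIST1 and BZW2 in NCI-H1703R. The block called 9.21% of all genes higher in NCI-H1581R and 18.2% in NCI-H1703R. TSPAN13, a tetraspanin, had 107 and 105 counts in NCI-H1581, 1449 and 839 in NCI-H1581R, 58 and 46 in NCI-H1703 and 13 and 7 in NCI-H1703R. It was thus higher in one resistant line (log2 fold change 3.38, SE 0.36, adjusted p = 0.00221) and lower in the other (-2.44, SE 0.52, adjusted p = 0.0447).

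SNX13, a sorting nexin and the tested gene nearest to the HDAC9 start, lies at -555.3 kb from it and rose in NCI-H1703R (log2 fold change 0.43, SE 0.10, adjusted p = 0.0561), while in NCI-H1581R its log2 fold change was 0.17 (adjusted p = 0.706). FERD3L, a helix-loop-helix gene beside TWIST1, had 4 and 2 counts in NCI-H1581, 32 and 12 in NCI-H1581R and 0 in the other line (adjusted p = 0.133 in NCI-H1581R, and 0.0783 with the block). POLR1F, a subunit of RNA polymerase I on the TWIST1 side, did not pass in either line (0.55 on the log2 scale with adjusted p = 0.161 in NCI-H1581R, and 0.13 with adjusted p = 0.633 in NCI-H1703R). Nor did AHR, the aryl hydrocarbon receptor (log2 fold change -1.86 with adjusted p = 0.107, and -0.17 with adjusted p = 0.581).

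The other tested neighbours were not called in either line without the block. ANKMY2 had log2 fold changes of 0.13 and 0.29 and BZW2 of -0.11 and 0.19, in NCI-H1581R and NCI-H1703R. With the block BZW2 had an adjusted p of 0.0850 in NCI-H1703R. AGR2, MACC1, ITGB8 and ABCB5 had at most 26 counts in any library. SOSTDC1, AGR3, LRRC72, PRPS1L1, TMEM196, SP8 and ENSG00000283321 were at 0 to 6 counts and were not tested.

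**Figure D5:**
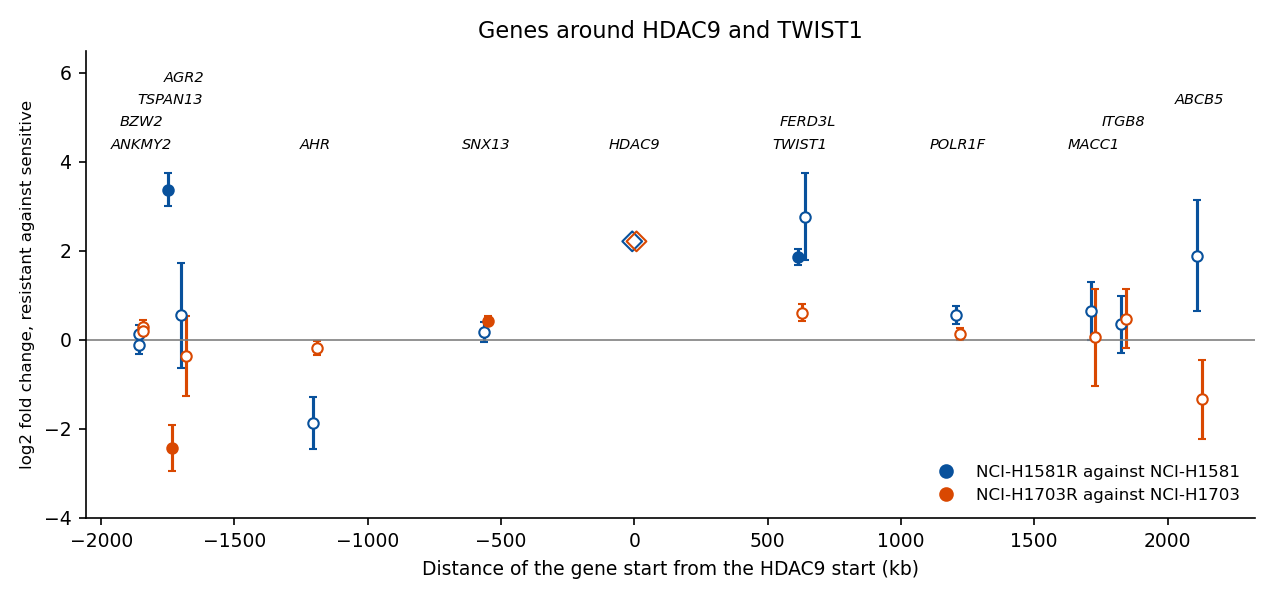
log2 fold change of the tested genes around HDAC9 against the distance of their start from the HDAC9 start in kb, with bars of 1 SE and filled points where the adjusted p was under 0.1; HDAC9 is drawn as open diamonds without a test. The 2 lines lie together at HDAC9 and apart at TWIST1 and TSPAN13.

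By Pearson correlation of log2 CPM over the 8 libraries, among 12381 protein-coding genes whose mean reached 1 CPM, those most like HDAC9 were PPP2R3A, SARS1, RAB9B, TRIM16 and DLG3 (r from 0.977 to 0.981). PPP2R3A, a regulatory subunit of phosphatase PP2A, had 135 and 187 counts in NCI-H1581, 445 and 486 in NCI-H1581R, 387 and 329 in NCI-H1703 and 748 and 759 in NCI-H1703R. Those most like TWIST1 were PIK3R3, CPD, DNAJC1, GPR37 and INTS6 (r from 0.978 to 0.985). HDAC9 and TWIST1 had an r of 0.41 with each other, and TWIST1 and MEF2A one of 0.93. The 8 points are 4 groups of 2 libraries, so these values are descriptions.

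The count totals were 33800389 to 40031710 per library, and the labelled cells were checked against markers. Of 6 carcinoma markers the mesenchymal VIM had 99631 to 244224 counts, and every epithelial marker had fewer. KRT8, KRT18, KRT19 and CDH1 had 10 to 143 counts in the NCI-H1581 line, and EPCAM had 284 to 537. In the NCI-H1703 line EPCAM and CDH1 had at most 44, and KRT8 and KRT19 had 38 to 269. EPCAM was lower in NCI-H1581R, by a log2 difference of -0.90 (adjusted p = 0.0568). KRT18 had 2380 and 2188 counts in NCI-H1703 and 109 and 94 in NCI-H1703R (log2 fold change -4.56, adjusted p = 0.000199). Of 6 lung lineage markers NKX2-1, TP63 and SOX2 were called higher in NCI-H1581R, by log2 fold changes of 1.81, 2.30 and 2.64, and the log2 fold change of SOX2 in NCI-H1703R was -6.62 (adjusted p = 0.000399), where NCI-H1703 had 1407 and 1244 counts and NCI-H1703R 21 and 7. Of 10 markers of other cell types CD3E was at 0 in all libraries and PTPRC at 0 in the NCI-H1703 line and at 0 to 15 counts in the NCI-H1581 line. CD68, ACTA2 and COL1A1 were called lower in NCI-H1581R and higher in NCI-H1703R. The summed level of the 10 was 201.8 to 239 CPM in NCI-H1581, 60.3 to 71.6 in NCI-H1581R, 24.0 to 26.6 in NCI-H1703 and 75.9 to 83.5 in NCI-H1703R, and the part of these markers in the results was not tested.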

How the data were processed

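RNA of 8 libraries (4 groups of 2, assigned from the labels for line, variant and replicate) was sequenced as 100 bp pairs. The authors trimmed the reads, used Salmon on GRCh38 and tximport, and deposited expected counts of each gene as whole numbers without normalisation. The Salmon version, the annotation, the tximport scaling and the strandedness are not given in the sources used here. Splitting of reads by Salmon can move counts between genes that share sequence, which bears most on HDAC5 and MEF2A.

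From the counts, edgeR 4.0.16 in R 4.3.3 gave TMM factors, CPM and the quasi-likelihood test (bias-adjusted quasi-dispersions, two-sided, Benjamini-Hochberg over 18203 genes with at least 10 counts in total, called under 0.1), within each line, between the lines and as an interaction of all 8 libraries. The standard error is the log2 fold change divided by the square root of F. Precision is set by 2 libraries per group and by 33800389 to 40031710 counts per library. Replicates differed beyond sampling noise in all 4 groups (chi-square per degree of freedom 23.3 to 96.8), and each counts as a library of its own. Models were tested on simulated counts. Symbols, positions and lengths came from GENCODE v44, promoter windows from RefSeq. Tables and figures used Python 3.11.15 with pandas 2.3.3 and matplotlib 3.10.9.

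The 8 genes, the lists, the tests and the rule for named genes were chosen with earlier results of these data known. The rule names all 8 genes, list genes called the same way in both lines, otherwise up to 3 called genes per line and list with the largest change and at least 1 CPM, the 5 genes most correlated with HDAC9 and the 5 with TWIST1, and protein-coding genes with a start within 2 Mb of either end of the HDAC9 gene. A gene that this rule selects is not reported here.

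The labels give the groups the same replicate numbers, and the growth protocol says that the procedure was repeated for the second replicate, so numbers pair libraries within a line. The difference of replicate 1 and 2 correlated with r = 0.253 between NCI-H1581 and NCI-H1581R and r = 0.554 between NCI-H1703 and NCI-H1703R, over 10419 genes, which are not independent. Between groups of different lines r ran from -0.557 (NCI-H1581R and NCI-H1703R) to 0.0329 (NCI-H1581 and NCI-H1703). A value across the lines was thus as large in size, so these correlations do not show whether libraries were paired. The main fits had no block. Alternatives were DESeq2 1.42.0, RLE factors, no filter, at least 10 counts in every library, the replicate block, all 8 libraries in 1 fit, a threshold of 0.05, leaving out each library in turn (the lone library is then assumed to vary like the others) and, added after seeing the data, legacy quasi-dispersions.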

Additional observations from a re-analysis of the deposited data

Results flagged for a closer look

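For the genes below the change with resistance differed between the lines by the interaction term of edgeR (adjusted p under 0.1). The value is the log2 fold change in NCI-H1703R minus that in NCI-H1581R. Among the tested members these were MEF2C (2.57, adjusted p = 0.00698), which fell in NCI-H1581R, and TWIST1 (-1.28, adjusted p = 0.0174), which rose in NCI-H1581R. Of all genes 15.4% passed this test. Beyond the members, only genes named by the rule were searched. The rule mostly takes genes with the largest called changes within a line of the same libraries, which favours such a difference. Their number therefore cannot be weighed against the share of all genes. Other list genes passed as well, among them ZEB1 (adjusted p = 0.000566), ID2 (0.00126), PPP3CA (0.0188) and TCF12 (0.0221).

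Among the named kinases the values were CAMK4 -5.13 (adjusted p = 0.0390), CAMK2D 3.68 (0.000427), PRKACB -1.82 (0.00407), CAMK1 -1.67 (0.00990) and SIK2 -1.01 (0.0219). Among MEF2 target genes they were ARC 2.90 (adjusted p = 0.00271), NR4A2 2.69 (0.0115), JUN -1.65 (0.0269) and NR4A1 -1.51 (0.0113). In the lists of the corepressor complex, of calcineurin and of MEF2 coactivators they were CBX5 -1.40 (adjusted p = 0.00185), RCAN3 -0.86 (0.0191) and KAT2B -0.70 (0.0639), in that order. In the list of TWIST1 partners, paralogues and factors of epithelial-mesenchymal transition, ID1 had -5.04 (adjusted p = 9.42e-06), ID3 -4.43 (2.43e-05) and ID4 -3.44 (0.000273). CDH2 had -4.08 (adjusted p = 0.00108) and ZEB2 6.07 (3.99e-05). ZEB2 was called in both lines with opposite signs, and ARC and ID4 were called in both lines with the same sign and different sizes. Groups of 2 libraries are too small for a check of single libraries that stand apart.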

How the results depend on the processing

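The HDAC9 fold changes moved by less than the spread between replicates in all 14 alternatives that kept every library. Those alternatives used the same counts of a gene picked for this rise, so this is a description. In the 8 alternatives that left out 1 library the HDAC9 fold changes also moved by less, but there the comparison could hardly come out otherwise. With 2 libraries per group, that spread sets how far leaving 1 out can move the change. No result changed sign while called. Leaving out 1 library each time gave 2 to 5 members called in NCI-H1581R, 0 to 1 in NCI-H1703R, 4 each time between the sensitive lines, 2 to 6 between the resistant lines and 1 to 4 for the interaction. The count of 0 arose without NCI-H1703 replicate 1 and without replicate 2, where 1 and 2 members had an unadjusted p under 0.05 in edgeR. It gave 11 to 35 pathway genes in NCI-H1581R and 3 to 9 in NCI-H1703R. Over the same fits, 6.16% to 28.5% of all genes were called for NCI-H1581R and 1.51% to 9.26% for NCI-H1703R. The latter share was 1.61% and 1.51% without NCI-H1703 replicate 1 and replicate 2. In NCI-H1703R the replicate block gave 4 members and 43 pathway genes, where it called 34.9% of all genes. A stricter filter (every library at 10 counts or more) gave 2 members (TWIST1 with an adjusted p of 0.0842), where 24.3% of all genes were called. A threshold of 0.05 gave 9 pathway genes. The replicate block removed the call of MEF2D between the resistant lines (adjusted p = 0.105) and changed no other call of a member beyond those given above. MEF2A was called in NCI-H1581R in the fit of all 8 libraries (adjusted p = 0.0405). The cause was not tested. Of 294 values of single members under alternatives 278 kept their side of the threshold, and of 346 of pathway genes 289 did. The genes above 1000 counts rest on the most reads. Among the called genes with 18 counts or fewer per library were MEF2C and BDNF in NCI-H1581R, CAMK4 in NCI-H1581 and TSPAN13 in NCI-H1703R.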

Other observations

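KRT5, a basal keratin, had 1, 0, 1 and 0 counts in replicate 1 of NCI-H1581, NCI-H1581R, NCI-H1703 and NCI-H1703R and 47, 41, 35 and 38 in replicate 2, so that its low level went with the replicate number in all 4 groups. It was singled out after its values were seen.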
